A study of Mus musculus with 8 samples.

Results

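Citric acid cycle and itaconate enzymes were followed as 9 genes chosen by name: Acod1, Cs, Aco1, Idh1, Idh2, Idh3a, Ogdh, Fh1 and Mdh2. All 9 have a row among the 17492 genes of the deposited table, and all 9 passed the filter on low counts. The cells were bone marrow derived macrophages of C57BL/6 mice. In the serine/glycine-free group (4 libraries, titled NSG) the medium lacked serine and glycine. In the control group (4 libraries, titled SG) the medium was normal, and no genetic change is named for either group. The labels give neither the time without the amino acids nor any stimulus, and do not say whether libraries came from separate animals or cultures. The p-values therefore describe the spread between these libraries, which may be technical.

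The citric acid cycle is the mitochondrial route that oxidizes acetyl groups from citrate back to oxaloacetate, and it feeds electrons to the respiratory chain. In macrophages, the enzyme encoded by Acod1 takes cis-aconitate, an intermediate of the aconitase step, out of the cycle and turns it into itaconate, a metabolite known for inhibiting succinate dehydrogenase and for damping inflammatory responses. Several steps also have cytosolic isozymes, such as the aconitase of Aco1 and the isocitrate dehydrogenase of Idh1, so that not every enzyme named after the cycle works in the mitochondrion.

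Without serine and glycine, Idh1 and Acod1 transcripts rose by 29.7% and 23.5%, while Ogdh fell by 7.56% and Cs fell by 6.84%. The other 5 enzymes did not pass the test. A gene was called where its adjusted p was under 0.05 in edgeR's quasi-likelihood test, 4 libraries against 4, with Benjamini-Hochberg adjustment over 11700 genes tested. With 33.2% of all tested genes called, 15.9% higher and 17.3% lower, 4 called of 9 is near the background. The CPM of the groups did not overlap for these 4 genes, against 30.7% of tested genes. The median log2 change was 0.0054 over the 9 enzymes and 0.0074 over all tested genes.

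Library totals lay between 17565291 and 18201599 estimated counts, and the members had between 766 (Idh2) and 5093 (Cs) counts in any library. The markers fixed for macrophages summed to between 18899 and 19371 CPM (counts scaled to a common library size), with overlapping ranges in the 2 groups. Most of this sum was Lyz2 (means of 9107 and 9994 CPM, control first) and Adgre1 (5763 and 4849 CPM), which changed in opposite directions. All 8 markers were called, 4 higher and 4 lower. Their log2 changes went from -0.61 (Itgam, an integrin subunit) to 0.41 (Csf1r, the receptor for macrophage growth factor). Markers of T cells, dendritic cells, mast cells, fibroblasts and erythroid cells each summed to at most 1.98 CPM in any library, and those of osteoclasts to between 221 and 239 CPM. Nearly all of the osteoclast sum was Acp5 (means of 176 and 165 CPM, control first) and Mmp9 (55.6 and 55.1 CPM). Ctsk had at most 28 counts in a library, Ocstamp 17, Dcstamp 13 and Calcr 1. Only 4 of 6 T cell, 3 of 5 mast cell and basophil and 4 of 5 erythroid markers had a row among the deposited genes. None of the listed markers with a row was at 0 in all libraries. The sum of 5 B cell markers went from between 43.5 and 51.3 CPM to between 32.1 and 38.9, nearly all of it Cd79b, while Ms4a1 and Pax5 had at most 7 counts in a library. The sum of 8 neutrophil markers went from between 0.827 and 1.17 CPM to between 1.94 and 2.34, mostly S100a8 (0.755 ± 0.178 and 1.87 ± 0.255 CPM; SD, n = 4), while each of the other 7 had at most 6 counts in a library. The part of other cells in the values below was not tested.

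The sequences before the start sites of the 4 called genes are shown first, since these 4 passed the test. Each line gives the 250 bases before the most upstream start that the RefSeq promoter table used here lists for the gene on GRCm38.p6, from 5′ to 3′ on the gene's strand. Capitals mark short motifs found on either strand, and no marked run overlaps another.
Acod1 (chr14:103046762-103047011, plus strand): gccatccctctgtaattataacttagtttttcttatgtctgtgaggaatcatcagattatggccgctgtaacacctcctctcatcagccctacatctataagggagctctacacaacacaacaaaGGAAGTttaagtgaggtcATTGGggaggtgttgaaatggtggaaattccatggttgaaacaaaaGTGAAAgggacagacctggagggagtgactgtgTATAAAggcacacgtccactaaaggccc
Idh1 (chr1:65186480-65186729, minus strand): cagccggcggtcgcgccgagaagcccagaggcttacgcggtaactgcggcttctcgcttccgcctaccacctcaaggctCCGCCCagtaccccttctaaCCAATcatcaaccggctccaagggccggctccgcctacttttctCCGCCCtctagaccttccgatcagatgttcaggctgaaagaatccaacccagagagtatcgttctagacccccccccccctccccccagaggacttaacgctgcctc
Cs (chr10:128337477-128337726, plus strand): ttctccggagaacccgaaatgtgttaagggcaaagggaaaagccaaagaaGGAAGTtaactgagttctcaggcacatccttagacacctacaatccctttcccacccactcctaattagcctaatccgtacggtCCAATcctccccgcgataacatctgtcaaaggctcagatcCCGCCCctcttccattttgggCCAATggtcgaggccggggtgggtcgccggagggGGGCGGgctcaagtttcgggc
Ogdh (chr11:6291347-6291596, plus strand): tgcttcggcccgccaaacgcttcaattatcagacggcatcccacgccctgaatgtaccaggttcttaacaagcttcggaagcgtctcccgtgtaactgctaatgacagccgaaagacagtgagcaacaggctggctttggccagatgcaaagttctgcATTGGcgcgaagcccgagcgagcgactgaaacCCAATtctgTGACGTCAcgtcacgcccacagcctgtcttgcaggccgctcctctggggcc

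The motifs were chosen after these windows had been read. For Idh2, which is counted below, the listed start lies inside the annotated span of the gene. The TATA box (TATAAA) stood in the Acod1 window only among 8 members with a RefSeq promoter entry, 28 bases before the start, and in 13% of 27025 promoters of the same length. The core of elements for interferon regulatory factors (GTGAAA) was likewise found in Acod1 alone of the 8, against 11.3% of all promoters. The core bound by ETS factors such as PU.1 (GGAAGT) was present in Acod1, Cs and Mdh2, against 19.9%. The GC box (GGGCGG) was found in 6 of the 8, in Idh1 and Cs but not in Acod1 or Ogdh, against 33.0%. The CCAAT box (CCAAT) was also present in 6, in all 4 windows printed here, against 34.5%. A cyclic AMP response element (TGACGTCA) occurred in Ogdh and Mdh2, against 1.6%. Neither the core of the antioxidant response element (TGACNNNGC, in 10.1% of all promoters) nor the E-box (CACGTG, in 6.04%) was found in any of the 8 windows. The Acod1 window held 44.4% G and C and 2 CpG dinucleotides, the lowest of the 8 on both counts. The other 7 ranged from 52.8% to 67.2% and from 10 to 23 CpG, beside medians of 52% and 6 over all promoters. These are matches of letters, not measured binding sites.

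**Figure D1:**
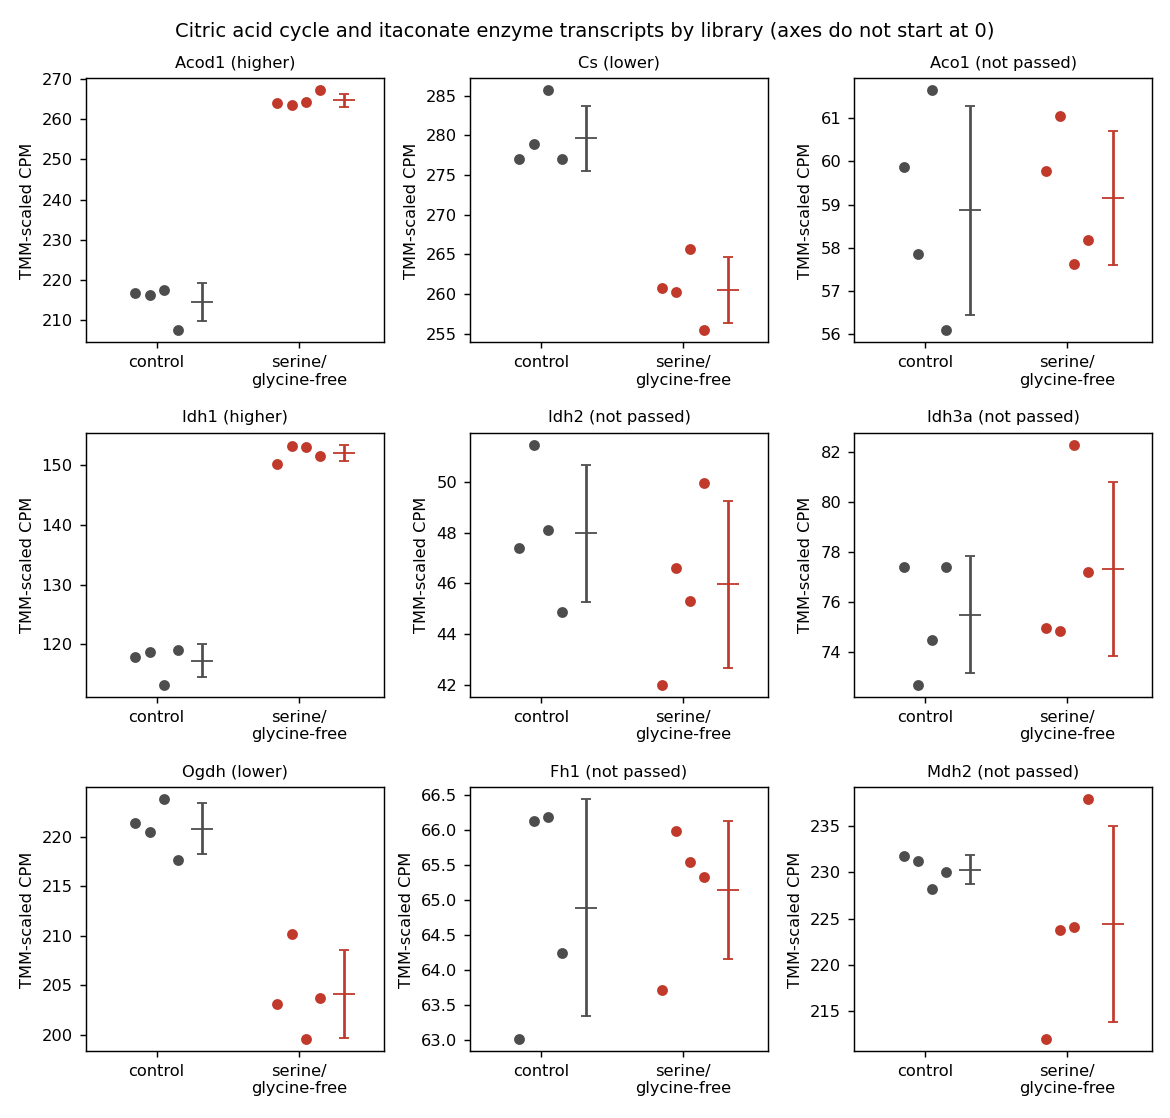
Level of each of the 9 enzymes in TMM-scaled CPM, 1 point per library, with the mean and SD of each group of 4 beside the points. Acod1 and Idh1 lie higher and Cs and Ogdh lower without serine and glycine, with no overlap of the groups, whereas the ranges of the other 5 overlap.

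Acod1 (Entrez 16365, chromosome 14, 103047012 to 103056573 on GRCm38.p6, protein-coding) encodes cis-aconitate decarboxylase, which makes itaconate. Its level was 217, 216, 218 and 207 CPM in control libraries 1 to 4 and 264, 264, 264 and 267 CPM in the serine/glycine-free libraries 1 to 4. Here CPM is the deposited estimated count per library total, after edgeR's TMM scaling, which sets libraries level by a trimmed mean of their log ratios. Every serine/glycine-free library was above every control library, and control replicate 4 was the lowest of all. Group means were 214 ± 4.75 and 265 ± 1.65 CPM (SD, n = 4), and the log2 change was 0.30 (SE 0.026, edgeR adjusted p = 7.1e-13). Without control replicate 4 it was 0.29 (adjusted p = 3.3e-11). A larger change in either direction was found in 12.8% of tested genes, and in 28.2% of called genes.

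Cs (Entrez 12974, chromosome 10, 128337727 to 128362482) encodes citrate synthase, which joins acetyl-CoA and oxaloacetate. It stood at 277, 279, 286 and 277 CPM in the controls and at 261, 260, 266 and 255 CPM without serine and glycine. The groups did not overlap, yet the gap between them was narrow beside that of Acod1. Group means were 280 ± 4.09 and 261 ± 4.20 CPM (SD, n = 4). The log2 change of -0.10 (SE 0.026) passed the test (edgeR adjusted p = 0.0017). Among called genes, 91.1% had a larger change, so this fall was among the smallest that passed.

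Aco1 (Entrez 11428, chromosome 4, 40143265 to 40199009) encodes the cytosolic aconitase, which becomes iron regulatory protein 1 when its iron-sulfur cluster is lost. Its values were 59.9, 57.9, 61.6 and 56.1 CPM in the controls and 59.8, 61.0, 57.6 and 58.2 CPM in the serine/glycine-free libraries. The serine/glycine-free values lie inside the control range. The log2 change was 0.0073 with a 95% interval of -0.072 to 0.087 (edgeR adjusted p = 0.914), and its sign turned under 5 of 18 alternative settings.

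Idh1 (Entrez 15926, chromosome 1, 65158616 to 65186479) encodes the NADP-dependent isocitrate dehydrogenase of cytosol and peroxisomes, a source of NADPH. It was at 118, 119, 113 and 119 CPM in the controls and at 150, 153, 153 and 152 CPM without serine and glycine. The groups were well apart, with control replicate 3 the lowest library. Group means were 117 ± 2.74 and 152 ± 1.38 CPM (SD, n = 4). With a log2 change of 0.37 (SE 0.030, edgeR adjusted p = 4.3e-14), Idh1 changed the most of the 9 enzymes, here and under all 18 alternative settings. In all tested genes, 8.97% changed more.

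Idh2 (Entrez 269951, chromosome 7, 80094845 to 80118608) encodes the mitochondrial NADP-dependent isocitrate dehydrogenase. Its values were 47.4, 51.5, 48.1 and 44.9 CPM in the controls and 42, 46.6, 45.3 and 50 CPM in the other group. The groups overlapped widely, and its coefficients of variation, 5.64% and 7.16%, were the largest of the 9 enzymes in both groups. The log2 change was -0.062 with a 95% interval of -0.16 to 0.035 (edgeR adjusted p = 0.343). Idh3a (Entrez 67834, chromosome 9, 54586511 to 54604662) encodes the catalytic subunit of the NAD-dependent enzyme that works in the cycle itself. It was at 77.4, 72.7, 74.5 and 77.4 CPM in the controls and at 75, 74.9, 82.3 and 77.2 CPM without serine and glycine. Only replicate 3 of the serine/glycine-free group rose above the control range, and the log2 change of 0.035 (95% interval -0.041 to 0.11) did not pass (edgeR adjusted p = 0.517).

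Ogdh (Entrez 18293, chromosome 11, 6291597 to 6359094) encodes the first component of the 2-oxoglutarate dehydrogenase complex. Its level was 221, 220, 224 and 218 CPM in the controls and 203, 210, 200 and 204 CPM in the serine/glycine-free libraries. All 4 of the latter lay under the controls, replicate 2 being the nearest to them. Group means were 221 ± 2.55 and 204 ± 4.45 CPM (SD, n = 4), with a log2 change of -0.11 (SE 0.027, edgeR adjusted p = 0.00088). In 25% of libraries its estimated count was not whole, which RSEM gives where reads may belong to more than 1 locus. The other 8 enzymes had whole counts in all 8 libraries, within a tolerance of 1e-06.

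Fh1 (Entrez 14194, chromosome 1, 175601378 to 175625635) encodes fumarate hydratase, which turns fumarate into malate. It was at 63.0, 66.1, 66.2 and 64.2 CPM in the controls and at 63.7, 66.0, 65.5 and 65.3 CPM without serine and glycine. The groups lay on top of each other: the log2 change was 0.0054 with a 95% interval of -0.069 to 0.080 (edgeR adjusted p = 0.932), and its sign also turned under 5 of 18 settings. Mdh2 (Entrez 17448, chromosome 5, 135778649 to 135790386) encodes the mitochondrial malate dehydrogenase, which regenerates oxaloacetate. Its values were 232, 231, 228 and 230 CPM in the controls and 212, 224, 224 and 238 CPM in the other group. The serine/glycine-free libraries fell on both sides of the controls, with a coefficient of variation of 4.71% against 0.686%. The log2 change of -0.037 (95% interval -0.096 to 0.021) did not pass (edgeR adjusted p = 0.347). Its TPM, in contrast, did not overlap between the groups, though the limma fit on log2(TPM + 1) did not pass (-0.071, adjusted p = 0.0745). In that fit the median log2 change over all tested genes was -0.021, beside 0.0074 in the main fit. Once each library's trend of level with gene length was taken out, Mdh2 passed (-0.090, adjusted p = 0.0027). Its effective length, 1134 bases, was the shortest of the 9, and the slope of that trend moved with the groups. Per doubling of length it was between 0.0031 and 0.040 on the log2 scale in the 4 controls and between -0.054 and 0.0016 in the 4 serine/glycine-free libraries, with no overlap. The calls of Acod1, Idh1, Cs and Ogdh held once the trend was taken out, with log2 changes of 0.30, 0.36, -0.10 and -0.086.

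**Figure D2:**
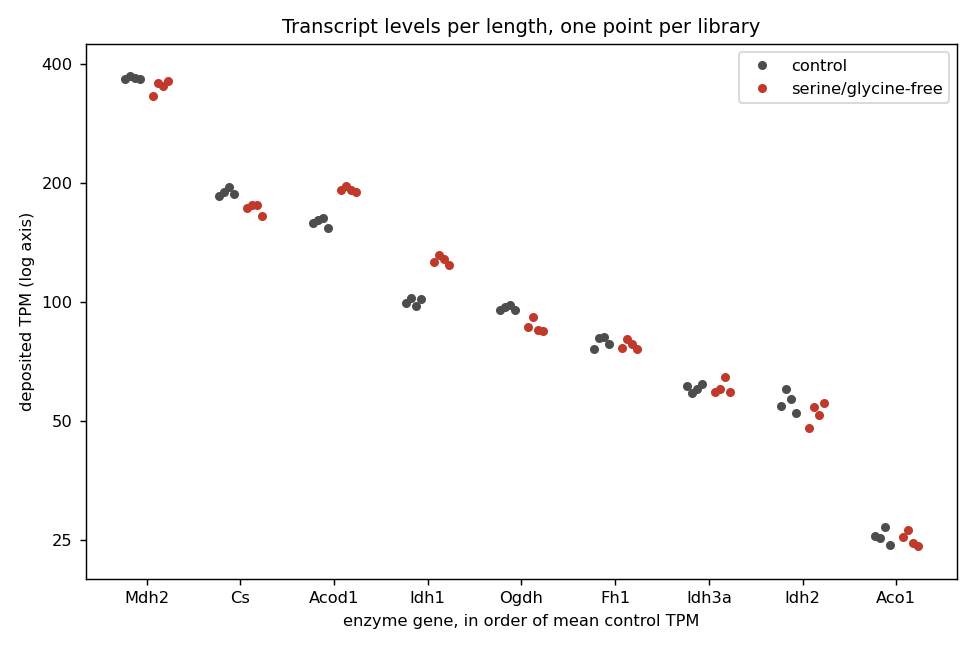
Deposited TPM of the 9 enzymes on a log axis, 1 point per library, in order of the control mean. Acod1 lies under Cs in the 4 control libraries and above it in the 4 serine/glycine-free libraries.

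Levels of different genes were compared per length, in the TPM (transcripts scaled to a fixed sum in each library) that the authors deposited. Mdh2 was the highest in both groups, at 369 ± 2.74 TPM in the controls and 351 ± 13.2 TPM without serine and glycine (SD, n = 4). In the controls Cs followed at 190 ± 4.29 TPM and Acod1 at 160 ± 4.06 TPM. Without serine and glycine their order was the opposite, with Acod1 at 193 ± 2.79 TPM and Cs at 173 ± 5.45 TPM, and in each group the 2 genes' ranges were apart. Idh1 went from 101 ± 2.10 to 128 ± 3.31 TPM, and Ogdh from 96.6 ± 1.32 to 87.1 ± 3.42 TPM. Those 2 genes' ranges overlapped in the controls and were apart in the serine/glycine-free libraries. Fh1 was at 79.5 ± 2.68 and 78.0 ± 2.19 TPM, Idh3a at 60.8 ± 1.45 and 60.9 ± 2.72, and Idh2 at 56.1 ± 3.46 and 52.5 ± 3.33, control first. Idh3a and Idh2 overlapped in the controls only. Aco1 was the lowest in both groups, at 25.6 ± 1.10 and 25.2 ± 1.09 TPM.

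**Figure D3:**
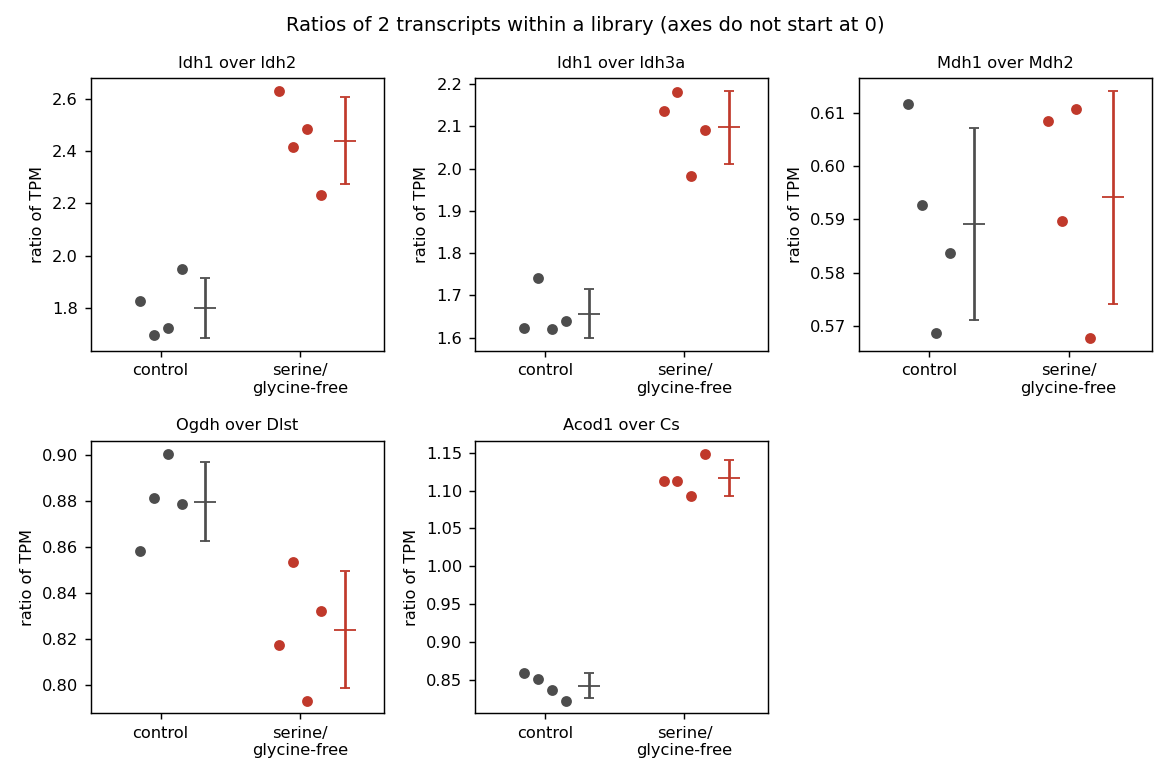
Ratio of the TPM of 2 genes within each library for 5 pairs, 1 point per library, with the mean and SD of each group of 4. The groups are apart for Idh1 over Idh2, Idh1 over Idh3a, Ogdh over Dlst and Acod1 over Cs, and overlap for Mdh1 over Mdh2.

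Ratios of 2 transcripts within a library do not depend on how libraries are scaled, and 6 pairs were compared by exact permutation over the 8 libraries (two-sided, 70 relabellings, smallest possible p = 0.0286). They restate the changes above for pairs of genes and are not independent of them. Acod1 over Cs was 0.859, 0.851, 0.836 and 0.822 in the controls and 1.11, 1.11, 1.09 and 1.15 without serine and glycine. The ratio was thus under 1 in the 4 control libraries and over 1 in the 4 serine/glycine-free libraries (difference of log2 ratios 0.41; exact p = 0.0286, adjusted over the 6 pairs p = 0.0429). The TPM of Acod1 and of Cs had each separated the groups, in opposite directions. The exact p of their ratio could therefore only be the smallest possible, and it adds no support.

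Among the isocitrate dehydrogenases, cytosolic Idh1 gained on both mitochondrial enzymes. Idh1 over Idh2 was 1.83, 1.70, 1.73 and 1.95 in the controls and 2.63, 2.42, 2.48 and 2.23 in the serine/glycine-free libraries, with no overlap (log2 difference 0.44). Idh1 over Idh3a was 1.66 ± 0.0578 and 2.10 ± 0.0860 (SD, n = 4; log2 difference 0.34), also with no overlap. Both had the same exact p of 0.0286 and adjusted p of 0.0429 as Acod1 over Cs. Given each gene's TPM range in each group, neither ratio could have overlapped, however the values were matched across libraries. The exact p of both could therefore only be the smallest possible, and it adds no support.

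The malate dehydrogenase pair, which also sets a cytosolic against a mitochondrial enzyme, overlapped between the groups. Mdh1 over Mdh2 was 0.589 ± 0.0180 in the controls and 0.594 ± 0.0201 without serine and glycine (SD, n = 4; exact p = 0.80, adjusted p = 0.80). Within the 2-oxoglutarate dehydrogenase complex, Ogdh over Dlst, the gene of its second component, fell from 0.880 ± 0.0173 to 0.824 ± 0.0254 with no overlap (log2 difference -0.095; exact p = 0.0286, adjusted p = 0.0429). Dlst itself had a log2 change of -0.025 (edgeR adjusted p = 0.546). None of the ratios was corrected for the trend with gene length. In the edgeR fit with that trend taken out, Ogdh stood at -0.086 (adjusted p = 0.0042) and Dlst at -0.028 (adjusted p = 0.447).

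**Figure D4:**
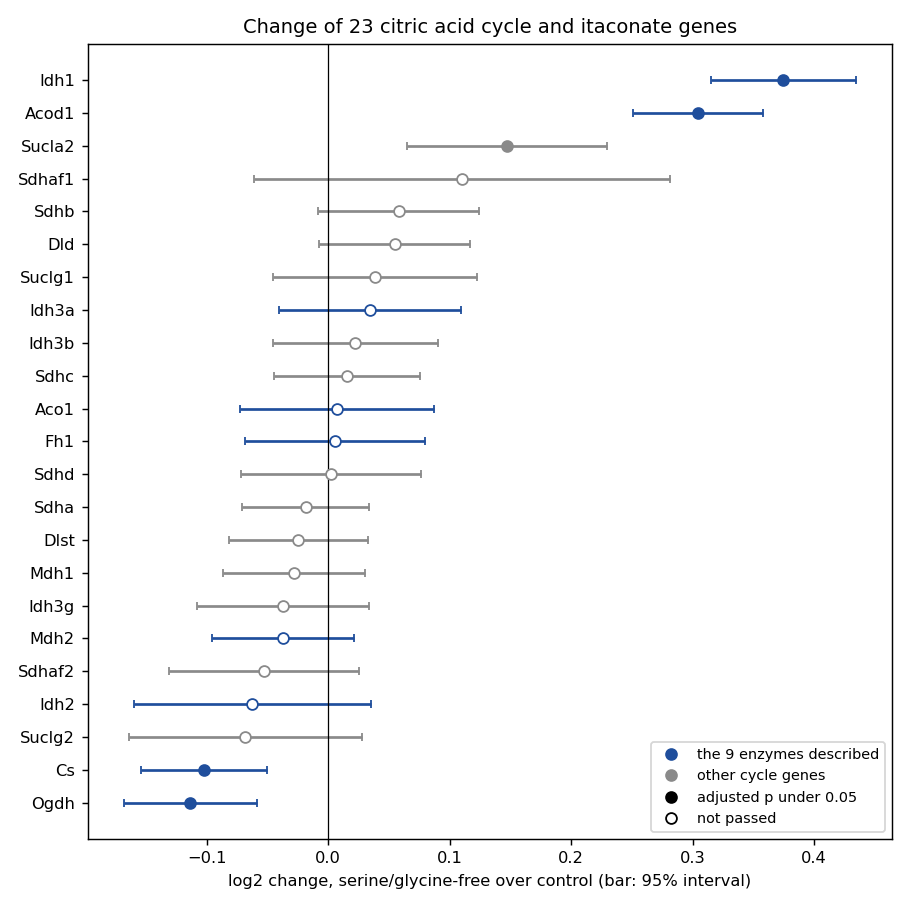
Log2 change with its 95% interval for the 9 enzymes (blue) and 14 of 15 other genes of the cycle (grey), filled where the adjusted p was under 0.05. Idh1 and Acod1 stand at 0.37 and 0.30, Sucla2 at 0.15, and Cs and Ogdh at -0.10 and -0.11, while the intervals of the other 18 include 0.

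The rest of the cycle was read from a list of 15 genes, all of them tested. Of these, 1 rose, 0 fell and 14 did not pass, with a median log2 change of 0.0023, beside 33.2% of all tested genes called. The gene that rose was Sucla2, which encodes the ATP-specific subunit of succinyl-CoA synthetase, with group means of 54.3 ± 1.66 and 60.1 ± 2.93 CPM (SD, n = 4) and a log2 change of 0.15 (SE 0.041, edgeR adjusted p = 0.0039). With gene length corrected for, 2 passed: Sucla2 and Idh3g, a regulatory subunit of the NAD-dependent isocitrate dehydrogenase, which was named after its value was seen (-0.087, adjusted p = 0.0252; -0.037 and adjusted p = 0.454 without the correction). Suclg2, the GTP-specific counterpart, stood at -0.068 (adjusted p = 0.286), and Dld, the component shared by the 2-oxoglutarate and pyruvate dehydrogenase complexes, at 0.055 (adjusted p = 0.175). Sdhb, a subunit of succinate dehydrogenase, the enzyme that itaconate inhibits, stood at 0.058 (adjusted p = 0.176).

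**Figure D5:**
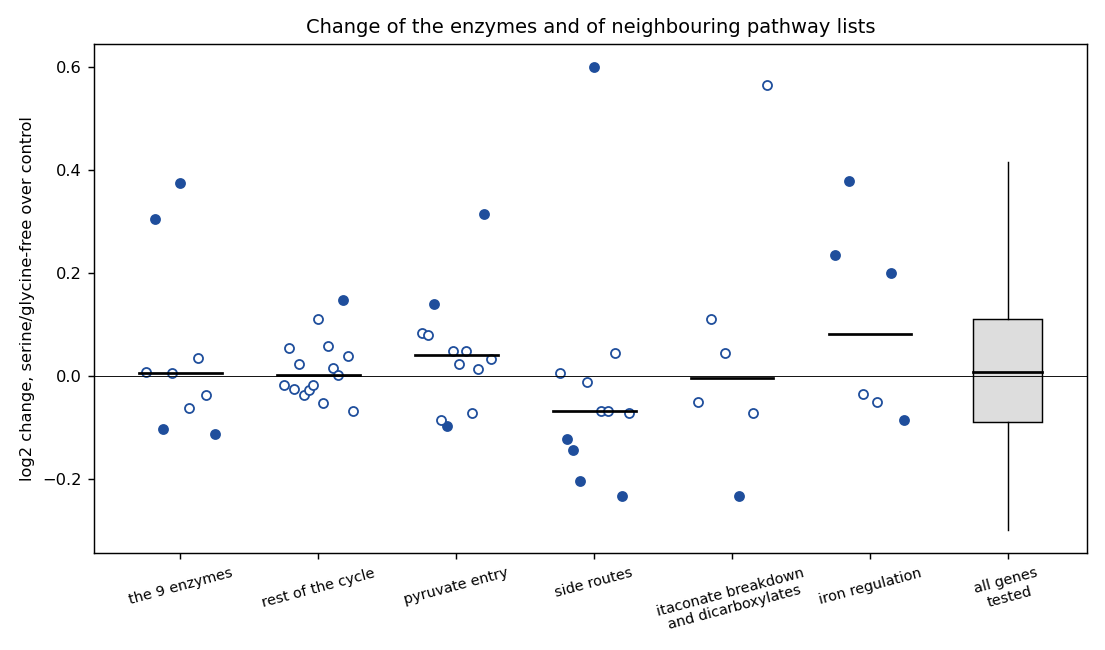
Log2 change of each tested gene in the 9 enzymes and in 5 neighbouring lists, filled where the adjusted p was under 0.05, with the list median as a bar. The box for all tested genes spans the middle 50% of genes and its lines the middle 90%. Medians lie between -0.069 for the side routes and 0.082 for iron regulation.

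Pyruvate enters the cycle through the mitochondrial pyruvate carrier and the pyruvate dehydrogenase complex. Of 13 genes of this entry, 12 were tested: 2 rose, 1 fell and 9 did not pass (median log2 change 0.040). That is 3 of 12, beside 33.2% of all tested genes called, and 1 of 12 without control replicate 2. Pdp1, a phosphatase that switches pyruvate dehydrogenase on, rose by 0.31 (log2; SE 0.058; edgeR adjusted p = 2.6e-05), with group means of 19.1 ± 1.11 and 23.7 ± 0.839 CPM (SD, n = 4). Pdha1, a subunit of the dehydrogenase itself, fell by 0.097 on the log2 scale (adjusted p = 0.0154), with estimated counts that were not whole in any library. Its call was lost without control replicate 2 (adjusted p = 0.0650). Mpc2, a subunit of the carrier, was called at 0.14 (adjusted p = 0.0484) although its groups overlapped. That call was lost when any library but serine/glycine-free replicate 1 or control replicate 3 was left out (adjusted p 0.0716 to 0.164), and under 7 other settings, among them the fit corrected for gene length (0.059, adjusted p = 0.449). Dlat, another subunit of the complex, stood at 0.083 (adjusted p = 0.0832), and passed once replicate 4 of the serine/glycine-free group was left out (adjusted p = 0.0377) or gene length was corrected for (adjusted p = 0.0128).

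Routes that carry carbon out of or into the cycle were represented by 12 genes, of which 11 were tested: 1 rose, 4 fell and 6 did not pass (median log2 change -0.069), beside 15.9% of all tested genes called higher and 17.3% lower. Me1, the cytosolic malic enzyme and, like Idh1, a source of cytosolic NADPH, rose by 0.60 (log2; SE 0.083; edgeR adjusted p = 1.3e-07), with group means of 8.13 ± 0.936 and 12.3 ± 0.470 CPM (SD, n = 4). Slc25a10, the mitochondrial dicarboxylate carrier, was the most significant of those that fell, with group means of 287 ± 6.91 and 245 ± 10 CPM (log2 change -0.23, adjusted p = 6.2e-09). Got1, the cytosolic aspartate aminotransferase, fell (-0.20, adjusted p = 0.00012), as did Glud1, the glutamate dehydrogenase that yields 2-oxoglutarate (-0.14, adjusted p = 1.6e-05).

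A list of 6 genes for itaconate breakdown and dicarboxylate transport shares Slc25a1, Slc25a10 and Slc25a11 with the side routes. Slc25a10, already counted there, was the only one of the 6 that passed, beside 33.2% of all tested genes called. Clybl, whose enzyme cleaves citramalyl-CoA from itaconate breakdown, was at 8.74 ± 0.623 and 9.44 ± 0.334 CPM (SD, n = 4; log2 change 0.11, edgeR adjusted p = 0.327). Sugct, a CoA transferase gene, had 8 to 17 counts per library (0.56, adjusted p = 0.138). Slc25a11, the 2-oxoglutarate carrier, stood at -0.073 (adjusted p = 0.0633) and passed when control replicate 3 was left out (-0.10, adjusted p = 0.0125), with no filter, on log2(TPM + 1) and with gene length corrected for.

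Since the protein of Aco1 is also an iron regulatory protein, 6 genes of iron regulation were read beside it. Of these, 3 rose, 1 fell and 2 did not pass (median log2 change 0.082), beside 15.9% of all tested genes higher and 17.3% lower. Without control replicate 2 or 3 the number called was 2 of 6. The ferritin subunit genes Ftl1 and Fth1 were at 0.38 (edgeR adjusted p = 1.6e-05) and 0.23 (adjusted p = 0.0216), and Slc40a1, the iron exporter ferroportin, at 0.20 (adjusted p = 0.0028). Ferritin genes have many near-identical copies. Ftl1 had estimated counts that were not whole in any library, so its level is uncertain, whereas those of Fth1 were whole in all 8. The call of Fth1 was lost without serine/glycine-free replicate 1 and without control replicates 2, 3 or 4 (adjusted p 0.0545 to 0.0605). The transferrin receptor gene Tfrc was the one that fell (-0.086, adjusted p = 0.0208), although its groups overlapped in CPM and in TPM. It was lost without serine/glycine-free replicate 4 or control replicates 2 or 3 (adjusted p 0.0767 to 0.0925), and in the fit corrected for gene length (-0.048, adjusted p = 0.141).

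The genes most like Acod1 over the 8 libraries were sought among 9549 others with a mean of at least 5 CPM, by the root-mean-square difference of log2 CPM centred on the control mean. The nearest were Rufy3 (difference 0.023), Ptpra (0.025) and Bin1 (0.025), with log2 changes of 0.30, 0.27 and 0.29. For Idh1 they were Myo1f (0.011), Hvcn1 (0.016) and Pla2g7 (0.025), with log2 changes of 0.36, 0.38 and 0.38. Myo1f encodes a class I myosin of leukocytes, Hvcn1 the voltage-gated proton channel and Pla2g7 a lipoprotein-associated phospholipase. This is a description of similar profiles in 8 libraries, in which the 2 groups account for most of the shape.

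On the same build, long noncoding RNA genes overlap Acod1 (Gm41235), Cs (Gm51822) and Ogdh (Gm46270), a small nucleolar RNA gene (Gm23182) overlaps Cs, and a pseudogene (Gm45933) overlaps Ogdh. Only Gm46270 has a row in the deposited table, with at most 2 counts in a library. Whether counting used the strand is not given in the sources used here, so reads from these overlaps cannot be told apart from those of the enzymes. All values are transcript levels in bulk cultures, where fewer cells of a type and less RNA per cell cannot be told apart, and they measure neither enzyme activity nor metabolites.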

How the data were processed

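Per the labels' protocols, Trizol-extracted total RNA was made into libraries by oligo-dT capture. The authors deposited estimated counts, FPKM and TPM for 17492 genes in 8 libraries. The submitters' processing notes list BWA, Bowtie2 and RSEM with GRCm38.p6, without versions. The strand setting is not stated in the labels. Estimated counts, deposited unscaled, were rounded and tested with edgeR 4.0.16 in R 4.3.3 (filterByExpr with minimum count 10 and minimum total 15, TMM, robust quasi-likelihood F test, 6 residual degrees of freedom before moderation, Benjamini-Hochberg over all 11700 genes tested). The standard error is the log2 change over the root of F. FPKM, scaled by the authors per length and library, gave each gene's effective length. TPM, scaled by the authors to the same sum in each library, gave levels between genes and 6 ratios. Of these, 1 ratio and the single values of some listed genes are not reported here. The 6 deposited columns of group means were not used. Sequences and coordinates are RefSeq's on GRCm38.p6, matched by Entrez ID (8 of 9 members for promoters).

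The members and lists were chosen with earlier results of these data known. Named genes were the 9 members, up to 4 of each list by smallest p, the genes of the ratios and the 3 nearest profiles each to Acod1 and Idh1. The 12 within-group pairs had chi-square values of 1.41 to 3.46 per degree of freedom, more than repeat sequencing of the same library would give. These values cannot tell separate cultures from separate preparations of the same RNA. The common coefficient of variation between libraries that edgeR estimated beyond counting noise was 2.78%. No batch is given in the labels. Alternatives were other scalings, filters, tests (DESeq2 1.42.0, limma 3.58.1), removal of a length trend, a stricter threshold (adjusted p under 0.01), a replicate block and leaving out each library. Only the edgeR fit, with and without removal of a length trend, was tried on simulated data, and the other tests were not.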

Additional observations from a re-analysis of the deposited data

Results flagged for a closer look

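In 7 of 84 groups of 4 libraries, 1 library stood apart by Dixon's gap test at the 95% level, which chance does in about 1 group in 20. Acod1 was at 207 CPM in control replicate 4, against 216 to 218 CPM in the other controls, and all 4 serine/glycine-free libraries were still higher. The same library was low for Pdp1, at 17.4 CPM against 19.5 to 19.8 CPM. Glud1 was at 307 CPM in serine/glycine-free replicate 4, against 324 to 325 CPM in the rest of its group. The same library was high for Idh3g, at 95.7 CPM against 86.3 to 87.7 CPM. Control replicate 3 was low for Slc25a11, at 139 CPM against 149 to 151 CPM, and for Myo1f, at 267 CPM against 275 to 277 CPM. The ratio of Idh1 to Idh3a was 1.74 in control replicate 2, against 1.62 to 1.64 in the other controls. The cause was not tested for any of these.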

How the results depend on the processing

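The calls and directions of Acod1, Cs, Idh1 and Ogdh held under all 18 alternatives, with log2 changes of 0.27 to 0.31, -0.13 to -0.092, 0.34 to 0.38 and -0.15 to -0.086. Calls over all genes ranged from 3061 (DESeq2) to 3901 (no filter), and were 2767 at an adjusted p under 0.01. Signs turned only for values near 0: Aco1 stood at -0.0013 with no filter, -0.022 on log2(TPM + 1) and between -0.016 and 0.029 with a library left out, Fh1 at -0.0032, -0.026, and -0.031 with the length trend removed, and between -0.0091 and 0.018 with a library left out, and Sdhb at -0.0066 with the length trend removed. The ratio Mdh1:Mdh2 lay between -0.0049 and 0.034 with a library left out. With 3 libraries against 4 the smallest exact p is 0.0571, so no ratio could pass. The differences were then 0.40 to 0.48 for Idh1:Idh2, 0.32 to 0.37 for Idh1:Idh3a, -0.11 to -0.076 for Ogdh:Dlst and 0.39 to 0.42 for Acod1:Cs. Replicate numbers did not pair the libraries (correlations of same-numbered deviations -0.094 to 0.061, and 1 of 4 serine/glycine-free libraries closest to its own number). Within the replicate block the exact p cannot go below 0.125, and the differences were the same: 0.44, 0.34, -0.095 and 0.41 for these 4 ratios. In edgeR the block gave 3655 calls against 3882 and lost the call of Mpc2 (adjusted p = 0.0557) among the genes named.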
